A study of Mus musculus with 21 samples.

Results

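The heat shock chaperones described here are 10 genes: Hspa8, Hsp90aa1, Hsp90ab1, Hspd1, Hspe1, Hsph1, Dnaja1, Dnajb1, Hspa4l and Hspa1b. They were chosen by gene symbol from a count table of 54532 genes, and all 10 were among the 16262 genes with enough reads to test. RNA was sequenced from c-kit+ bone marrow cells of C57BL/6 mice, taken from femur and tibia, freed of red cells by lysis and enriched on CD117 beads. The 11 libraries belong to 4 genotypes: Asxl1-/-Jak2V617F (3 libraries), Jak2V617F (3), Asxl1-/- (2) and WT (3). Asxl1 encodes a chromatin regulator, a cofactor of the BAP1 deubiquitinase. The Jak2V617F allele encodes an activated kinase that drives myeloproliferative neoplasms. The labels give no age, no promoter or Cre for either allele and no number of mice, so the p-values measure the spread between libraries, which may be partly technical.

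Heat shock chaperones hold unfolded proteins and help them to fold. The HSP70 proteins bind short exposed stretches of a client in a cycle that J-domain proteins start and nucleotide exchange factors end. HSP90 takes over partly folded clients, JAK2 among them, and HSP60 with its HSP10 lid encloses proteins inside mitochondria. Many of these genes are read through heat shock factor 1 (HSF1), which binds inverted repeats of GAA in their promoters, the heat shock elements. Protein-damaging stress, including the handling of cells, is known to raise the inducible members.

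By the mean of each genotype, 7 of the 10 genes were highest in Jak2V617F cells and 9 were lowest in WT cells. In Jak2V617F against WT, 6 of the 10 rose and none fell, with a median log2 fold change of 0.93, beside -0.05 over all genes tested. The 6 were Hsp90ab1, Hsp90aa1, Hspd1, Hspe1, Hsph1 and Hspa4l, and all 10 estimates were positive. In that comparison 24.4% of all genes tested rose and 29.2% fell. Against Jak2V617F, 3 of the 10 fell in Asxl1-/-Jak2V617F, Hspd1, Hspe1 and Hspa4l, and none rose (median -0.37, beside -0.01 over all genes). Of all genes, 24.5% rose and 19.8% fell there, so the share of members that fell was near the background.

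In Asxl1-/- against WT, Hsp90ab1 and Hspe1 rose and none of the 10 fell (median 0.60, beside -0.01 over all genes), where 11.3% of all genes rose and 11.2% fell. In Asxl1-/-Jak2V617F against WT, Hsp90ab1, Hspd1 and Hspe1 rose and none fell (median 0.67, beside -0.02), where 8.3% of all genes rose and 6.76% fell. In Asxl1-/-Jak2V617F against Asxl1-/-, 0 of 10 passed edgeR's quasi-likelihood test, 0 had an unadjusted p under 0.05 and DESeq2 also called 0. There 3.31% of all genes rose and 2.22% fell. Every comparison is a contrast of 1 fit, a call is an adjusted p under 0.05 over all genes tested, and the comparisons share libraries, so their calls are not independent of each other.

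**Figure D1:**
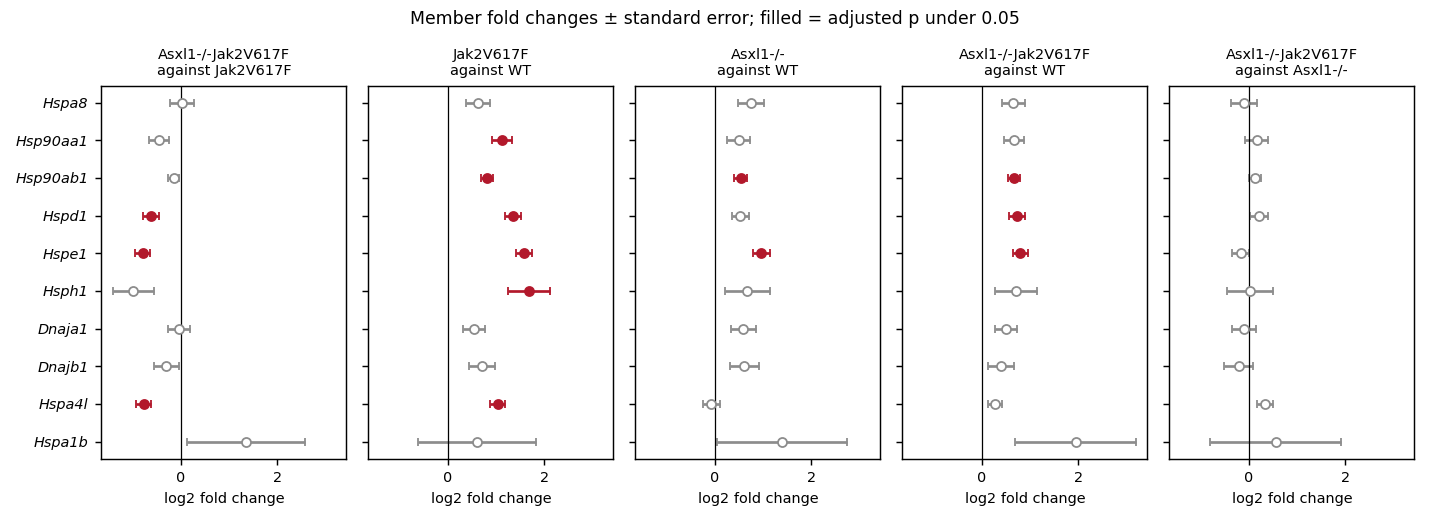
Log2 fold change of each of the 10 chaperone genes (rows) in the 5 comparisons (panels), with bars of 1 standard error from edgeR's quasi-likelihood test. Filled points passed an adjusted p of 0.05: 3 in Asxl1-/-Jak2V617F against Jak2V617F, 6 in Jak2V617F against WT, 2 in Asxl1-/- against WT, 3 in Asxl1-/-Jak2V617F against WT and 0 in Asxl1-/-Jak2V617F against Asxl1-/-.

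Some counts depend on a single library. Against Jak2V617F, 5 members fell in Asxl1-/-Jak2V617F without Jak2V617F 1, when Hsp90aa1 and Hsph1 joined the 3. The median there was -0.57 without Jak2V617F 1, -0.22 without Jak2V617F 2 and -0.21 with a sex term, against -0.37. In Asxl1-/- against WT the count was 0 without Asxl1-/- 1, 4 without Jak2V617F 1 and 5 without Jak2V617F 2. For Asxl1-/-Jak2V617F against WT it was 5 without Jak2V617F 1 and 6 without Jak2V617F 2. Sex was not matched either: both Asxl1-/- libraries (192 and 194 CPM) and Jak2V617F 2 (248 CPM) held reads of Y-linked genes, while the other 8 had Xist at 1390.3 to 2150.2 CPM. With a sex term in the fit, which within a genotype rests on Jak2V617F 2 alone, 0 members passed in Asxl1-/- against WT and 5 in Asxl1-/-Jak2V617F against WT. The median over the members in Asxl1-/- against WT turned to -0.07 with that term, with 5 estimates positive and 5 negative (Hsph1, Dnaja1, Dnajb1, Hspa4l and Hspa1b).

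The libraries held 16198011 to 19196283 counts each, and the 10 genes together took 1.01 to 1.30% of the counts in Asxl1-/-Jak2V617F, 1.08 to 1.67% in Jak2V617F, 0.936 to 1.08% in Asxl1-/- and 0.601 to 0.832% in WT. Kit, which encodes the receptor used to enrich the cells, lay between 218.8 and 338.3 CPM (the count scaled to library size with the TMM factor) in every library. Asxl1 averaged 96.4 ± 3.61 CPM over the Asxl1-/-Jak2V617F libraries and 157 ± 34.4 CPM over the Jak2V617F libraries (SD, n = 3 each). It averaged 93.0 ± 5.66 CPM in Asxl1-/- (n = 2) and 162 ± 1.41 CPM in WT (n = 3). A gene-level count does not show which exons the allele lacks. Jak2 averaged 92.2, 126, 101.4 and 77.0 CPM in Asxl1-/-Jak2V617F, Jak2V617F, Asxl1-/- and WT, and the counts do not show which Jak2 allele was read.

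Levels of cell type marker genes differed between genotypes as well. The summed level of 18 erythroid genes was 2648 to 4451 CPM in the Asxl1-/-Jak2V617F libraries, 8037 to 9703 CPM in the Jak2V617F libraries, 3266 to 3758 CPM in Asxl1-/- and 2078 to 3759 CPM in WT. Of these, 16 of 18 rose in Jak2V617F against WT and 16 of 18 fell in Asxl1-/-Jak2V617F against Jak2V617F. The summed level of 7 primary granule genes was 718 to 1251 CPM in Jak2V617F and at least 10285 CPM in every other library. That of 8 dendritic cell genes was 2638 to 3604 CPM in Jak2V617F and at most 522 CPM elsewhere. No erythroid, granule or dendritic marker in the table was at 0 in all libraries. The sum of 16 immediate early genes, which respond within minutes to many stimuli, was 1631 to 1982 CPM in the Asxl1-/-Jak2V617F libraries, 405 to 536 CPM in the Jak2V617F libraries, 821 to 1073 CPM in Asxl1-/- and 444 to 779 CPM in WT. The part of these differences in the chaperone values was not tested, and in bulk RNA a change in the share of a cell type and a change per cell cannot be told apart.

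**Figure D2:**
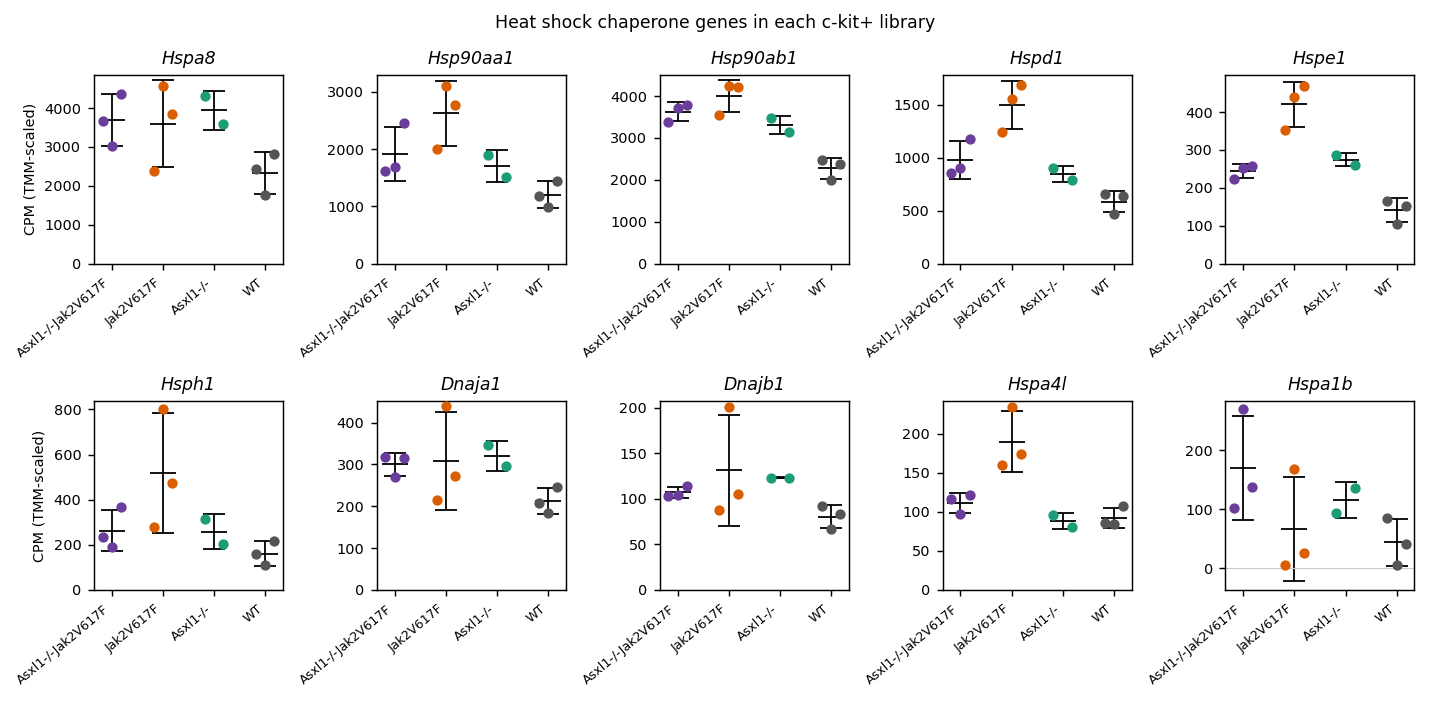
TMM-scaled CPM of each chaperone gene (panels, axes from 0 except for Hspa1b, where the SD bar reaches below 0) in the 11 libraries. Points are libraries, and bars are the genotype mean ± SD (n = 3, 3, 2 and 3). For Hspd1 and Hspe1 all 3 Jak2V617F points lie above all others, while Hspa1b spreads from 5.02 to 269 CPM.

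Per kilobase of the gene length given with the counts, the cytosolic HSP90 and HSC70 genes were the most abundant of the members. The scale depends on that length, which was 11792 bases for Hspa4l, 8629 for Dnaja1 and 3204 for Dnajb1. Whether it fits the mRNA present in these cells was not tested. The mean over the 11 libraries was 1102 CPM per kb for Hsp90ab1, 777 for Hspa8 and 478 for Hsp90aa1. The mitochondrial pair followed with 374 CPM per kb for Hspd1 and 183 for Hspe1. Then came Hsph1 with 41.9, Hspa1b with 34.8, Dnajb1 with 34.2, Dnaja1 with 32.7 and Hspa4l with 10.5 CPM per kb. Between neighbours in this order the ranges over the 11 libraries overlapped, except between Dnaja1 (21.3 to 50.9) and Hspa4l (6.83 to 19.9).

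Of the HSP90 genes, Hsp90ab1 (ENSMUSG00000023944, chromosome 17, 45567775 to 45573271 on mm10) encodes the constitutive cytosolic HSP90 beta. Its level was 3371, 3725 and 3784 CPM in the Asxl1-/-Jak2V617F libraries, 3555, 4249 and 4209 CPM in the Jak2V617F libraries, 3469 and 3150.1 CPM in Asxl1-/-, and 2477, 1994 and 2368 CPM in WT. All 8 libraries with a mutant allele lay above all 3 WT libraries. By edgeR's quasi-likelihood test it rose by 0.81 ± 0.12 on the log2 scale in Jak2V617F against WT (standard error; adjusted p = 0.000118), by 0.54 ± 0.13 in Asxl1-/- against WT (adjusted p = 0.0133) and by 0.67 ± 0.12 in Asxl1-/-Jak2V617F against WT (adjusted p = 0.0081). For Asxl1-/- the call did not survive leaving out Asxl1-/- 1 (0.48, adjusted p = 0.135) or adding a sex term to the fit (0.41, adjusted p = 0.277). Between Asxl1-/-Jak2V617F and Jak2V617F it differed by -0.14 ± 0.11 (adjusted p = 0.340).

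Hsp90aa1 (ENSMUSG00000021270, chromosome 12, 110690605 to 110702728) encodes the stress-inducible HSP90 alpha. It stood at 1617, 1684 and 2463 CPM in the Asxl1-/-Jak2V617F libraries, 2004, 3105 and 2776 CPM in the Jak2V617F libraries, 1906 and 1506 CPM in Asxl1-/-, and 1181, 992 and 1448 CPM in WT. The Jak2V617F libraries lay above the WT libraries, while Asxl1-/-Jak2V617F 3 overlapped the Jak2V617F range. It rose by 1.12 ± 0.21 in Jak2V617F against WT (adjusted p = 0.00112). In Asxl1-/-Jak2V617F against Jak2V617F the estimate was -0.45 ± 0.21 (adjusted p = 0.108), a value that passed when Asxl1-/-Jak2V617F 3 was left out (-0.67, adjusted p = 0.0226) or when Jak2V617F 1 was (-0.62, adjusted p = 0.0384). Against WT, Asxl1-/-Jak2V617F gave 0.67 ± 0.21 (adjusted p = 0.0558), which passed without Jak2V617F 1 or Jak2V617F 2 (adjusted p = 0.0408 and 0.0435) and with DESeq2 (adjusted p = 0.00838), and Asxl1-/- gave 0.50 ± 0.23 (adjusted p = 0.148).

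Hspa8 (ENSMUSG00000015656, chromosome 9, 40800984 to 40810087) encodes HSC70, the constitutive cytosolic HSP70. Its level was 3679.8, 3015 and 4359 CPM in the Asxl1-/-Jak2V617F libraries, 2386, 4574 and 3843 CPM in the Jak2V617F libraries, 4299.7 and 3593 CPM in Asxl1-/-, and 2424, 1762 and 2829 CPM in WT. The 3 WT libraries lay below all Asxl1-/-Jak2V617F and Asxl1-/- libraries, but Jak2V617F 1 lay within the WT range. It passed edgeR's quasi-likelihood test in none of the 5 comparisons. The estimate was 0.62 ± 0.24 in Jak2V617F against WT (adjusted p = 0.0520), which passed in 6 of 19 alternatives, among them DESeq2 (adjusted p = 0.0107) and the fits without Jak2V617F 1 (0.86, adjusted p = 0.00614), Asxl1-/-Jak2V617F 2 (0.66, adjusted p = 0.0411) or WT 3 (0.78, adjusted p = 0.0365). In Asxl1-/- against WT it was 0.76 ± 0.27 (adjusted p = 0.0681), which passed when either Jak2V617F 1 or Jak2V617F 2 was left out (adjusted p = 0.0285 and 0.0440), with DESeq2 (adjusted p = 0.0185) and with the compared groups alone (adjusted p = 0.0384). In Asxl1-/-Jak2V617F against WT it was 0.66 ± 0.24 (adjusted p = 0.0918), which passed without Jak2V617F 1 (adjusted p = 0.0423) and with DESeq2 (adjusted p = 0.0225).

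**Figure D3:**
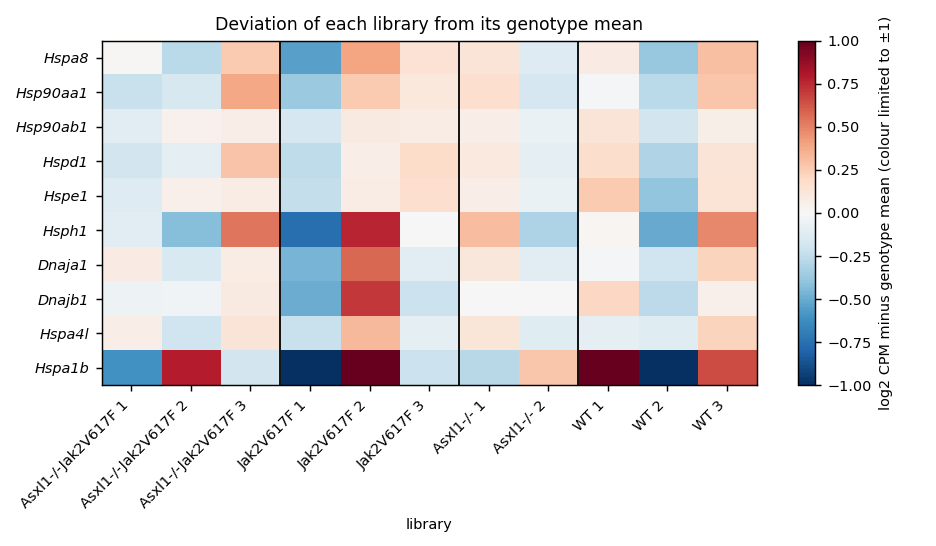
Difference of each library's log2 CPM from the mean of its genotype for the 10 chaperone genes (rows) and 11 libraries (columns, genotypes split by lines). Colour is limited to ±1, which Hspa1b exceeds. Jak2V617F 2 and WT 3 are above their genotype mean for 10 of 10 genes, Jak2V617F 1 and WT 2 for 0 of 10.

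The 2 members of the HSP110 branch, which act as nucleotide exchange factors for HSP70, were both highest in Jak2V617F. Hsph1 (ENSMUSG00000029657, chromosome 5, 149614287 to 149636376), which encodes HSP105, had 234, 189 and 366 CPM in the Asxl1-/-Jak2V617F libraries, 281, 803 and 472 CPM in the Jak2V617F libraries, 313 and 204 CPM in Asxl1-/-, and 158, 109.7 and 217 CPM in WT. It rose by 1.68 ± 0.44 in Jak2V617F against WT (adjusted p = 0.0112). Its estimate was -0.98 ± 0.43 in Asxl1-/-Jak2V617F against Jak2V617F (adjusted p = 0.0991), where the library ranges overlapped, and -1.28 without Jak2V617F 1 (adjusted p = 0.0318).

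Hspa4l (ENSMUSG00000025757, chromosome 3, 40744495 to 40796103) had 116, 97.0 and 122 CPM in the Asxl1-/-Jak2V617F libraries, 160.3, 234 and 175 CPM in the Jak2V617F libraries, 95.7 and 80.6 CPM in Asxl1-/-, and 85.9, 84.2 and 107 CPM in WT. The 3 Jak2V617F libraries lay above all others. Hspa4l rose by 1.04 ± 0.15 in Jak2V617F against WT (adjusted p = 0.000185) and fell by 0.77 ± 0.15 in Asxl1-/-Jak2V617F against Jak2V617F (adjusted p = 0.00191). Asxl1-/- differed from WT by -0.07 ± 0.17 (adjusted p = 0.813), the 1 negative estimate among the members there, and Asxl1-/-Jak2V617F differed from WT by 0.27 ± 0.15 (adjusted p = 0.233).

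The J-domain members, which recruit HSP70 to clients and start its ATP cycle, passed edgeR's quasi-likelihood test in none of the comparisons, while DESeq2 called both in Jak2V617F against WT (Dnaja1 0.59, adjusted p = 0.0193, and Dnajb1 0.76, adjusted p = 0.00662). Dnaja1 (ENSMUSG00000028410, chromosome 4, 40722150 to 40737149) had 317, 269 and 316 CPM in the Asxl1-/-Jak2V617F libraries, 214, 439 and 273 CPM in the Jak2V617F libraries, 346 and 295 CPM in Asxl1-/-, and 209, 183 and 246 CPM in WT. Dnajb1 (ENSMUSG00000005483, chromosome 8, 83608193 to 83612653), which encodes HSP40, had 103, 104 and 114 CPM in the Asxl1-/-Jak2V617F libraries, 87.3, 201 and 106 CPM in the Jak2V617F libraries, 123 and 123 CPM in Asxl1-/-, and 92.4, 66.6 and 83.0 CPM in WT. In both genes Jak2V617F 2 was the highest of all 11 libraries and Jak2V617F 1 lay within the WT range.

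Against WT the estimates in the single-lesion genotypes were 0.54 ± 0.23 for Dnaja1 (adjusted p = 0.0702) and 0.70 ± 0.27 for Dnajb1 (adjusted p = 0.0507) in Jak2V617F, and 0.59 ± 0.25 (adjusted p = 0.116) and 0.61 ± 0.30 (adjusted p = 0.168) in Asxl1-/-. Without Jak2V617F 1, both passed in Jak2V617F against WT (Dnaja1 0.75, adjusted p = 0.00902; Dnajb1 0.94, adjusted p = 0.00899), and Dnajb1 passed without Jak2V617F 3 (0.85, adjusted p = 0.0372), with median-of-ratios scaling (adjusted p = 0.0397) and with the filter at a CPM of 1 (adjusted p = 0.0377). Without Jak2V617F 2, both passed in Asxl1-/- against WT (adjusted p = 0.0143 and 0.00888) and in Asxl1-/-Jak2V617F against WT (adjusted p = 0.0241 and 0.0305). Dnaja1 shares 608 bases with Smu1 on the opposite strand, and since the strand setting of the counting is not given in the sources used here, part of its reads may belong to Smu1.

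The mitochondrial chaperonin genes fell in Asxl1-/-Jak2V617F against Jak2V617F and rose in Jak2V617F against WT. Hspd1 (ENSMUSG00000025980, chromosome 1, 55077835 to 55088243, minus strand) encodes HSP60, the barrel of the chaperonin. It had 851, 901 and 1178 CPM in the Asxl1-/-Jak2V617F libraries, 1241, 1552 and 1685 CPM in the Jak2V617F libraries, 901 and 791 CPM in Asxl1-/-, and 653, 469.6 and 635 CPM in WT. The genotypes with Jak2V617F did not overlap each other or WT: all 3 Jak2V617F libraries lay above all 3 Asxl1-/-Jak2V617F libraries, which lay above all 3 WT libraries. Against Jak2V617F, Hspd1 fell by 0.61 ± 0.16 in Asxl1-/-Jak2V617F (adjusted p = 0.0103). It rose by 1.35 ± 0.17 in Jak2V617F against WT (adjusted p = 4.61e-05) and by 0.74 ± 0.16 in Asxl1-/-Jak2V617F against WT (adjusted p = 0.0177), a call lost without WT 2 (0.60, adjusted p = 0.0665). In Asxl1-/- against WT it gave 0.53 ± 0.18 (adjusted p = 0.0560), which passed without Asxl1-/-Jak2V617F 3, Jak2V617F 1 or WT 1 (adjusted p = 0.0334, 0.0474 and 0.0402) and with DESeq2 (adjusted p = 0.0243).

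Hspe1 (ENSMUSG00000073676, chromosome 1, 55088132 to 55091307, plus strand) encodes HSP10, the lid of the same machine. It had 223, 253 and 257 CPM in the Asxl1-/-Jak2V617F libraries, 354, 438 and 469 CPM in the Jak2V617F libraries, 287 and 262 CPM in Asxl1-/-, and 165, 105 and 151 CPM in WT. No pair of genotypes overlapped. Against Jak2V617F, Hspe1 fell by 0.78 ± 0.16 in Asxl1-/-Jak2V617F (adjusted p = 0.00199). It rose by 1.58 ± 0.16 in Jak2V617F against WT (adjusted p = 1.38e-05), by 0.97 ± 0.17 in Asxl1-/- against WT (adjusted p = 0.00486) and by 0.80 ± 0.16 in Asxl1-/-Jak2V617F against WT (adjusted p = 0.0125). For Asxl1-/- the call did not survive leaving out Asxl1-/- 1 (0.91, adjusted p = 0.0659) or adding a sex term to the fit (0.87, adjusted p = 0.122). The 2 genes lie head to head and share 112 annotated bases, so some reads may have been counted for the wrong one. Adding the reads of processed pseudogenes, of which Hspd1-ps3 had 131 to 637 counts, left the number of members called as it was in each comparison.

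Since Hspd1 and Hspe1 start from 1 shared stretch of DNA, its sequence is shown with that of Hsph1, the member with the largest estimate in Jak2V617F against WT. Each is a RefSeq window (GRCm38.p6) of 250 bases before to 50 after the gene start, and capitals mark matches to GAANNTTC or TTCNNGAA, which are 2 units of the heat shock element. Each motif is its own reverse complement, so 1 search covers both strands, and matches may overlap.
Hspe1, chr1:55087898-55088197, plus strand: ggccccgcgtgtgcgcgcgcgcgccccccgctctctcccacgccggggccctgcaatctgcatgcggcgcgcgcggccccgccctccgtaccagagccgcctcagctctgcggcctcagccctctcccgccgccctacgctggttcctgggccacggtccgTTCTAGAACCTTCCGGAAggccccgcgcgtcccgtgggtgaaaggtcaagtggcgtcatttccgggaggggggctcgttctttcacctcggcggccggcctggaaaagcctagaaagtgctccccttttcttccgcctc
Hsph1, chr5:149636266-149636565, minus strand: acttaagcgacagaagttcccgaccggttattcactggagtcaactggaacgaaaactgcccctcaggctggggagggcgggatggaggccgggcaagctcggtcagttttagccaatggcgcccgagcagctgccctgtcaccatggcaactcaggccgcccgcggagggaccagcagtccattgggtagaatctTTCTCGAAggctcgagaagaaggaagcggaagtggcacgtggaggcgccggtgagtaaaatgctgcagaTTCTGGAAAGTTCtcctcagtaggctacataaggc
In the Hspe1 window the matches start 89, 84 and 79 bases before the gene start and run into each other, making a row of more than 2 units. The Hsph1 window has 1 match 54 bases before the start and another 2, overlapping, after it.

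RefSeq windows were found for 7 of the 10 members, with none matched for Hspa8, Hsp90aa1 and Hsp90ab1. At least 1 window held a 2-unit match in 5 of the 7 (Dnaja1, Hspa1b, Hspd1, Hspe1 and Hsph1), beside 17% of 27025 genes and 15.1% of all 32851 windows. Rows of 3 units or more were in 3 of the 7 (Hspd1, Hspe1 and Hsph1), beside 0.662% of genes and 0.603% of windows. Of these 3 genes, Hspd1 and Hspe1 share their matches. Dnajb1 and Hspa4l had no match in their windows. A match says only that these letters stand there, and no match says only that they are absent from the windows. Elements spelled otherwise, or lying outside the windows, were not searched for.

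The inducible HSP70 gene Hspa1b (ENSMUSG00000090877, chromosome 17, 34956436 to 34959238) varied widely between libraries of 1 genotype. It had 103, 269 and 138 CPM in the Asxl1-/-Jak2V617F libraries, 5.90, 168 and 25.4 CPM in the Jak2V617F libraries, 93.6 and 137 CPM in Asxl1-/-, and 85.5, 5.02 and 41.3 CPM in WT. The highest library exceeded the lowest 28.5-fold in Jak2V617F and 17.1-fold in WT, against 2.63-fold in Asxl1-/-Jak2V617F and 1.46-fold in Asxl1-/-. The 5 Asxl1-/- and Asxl1-/-Jak2V617F libraries lay above the 3 WT libraries, while Jak2V617F 2 lay among them. By edgeR's quasi-likelihood test, however, Hspa1b passed in no comparison: 1.35 ± 1.22 in Asxl1-/-Jak2V617F against Jak2V617F (adjusted p = 0.414), 0.60 ± 1.23 in Jak2V617F against WT (adjusted p = 0.706), 1.39 ± 1.34 in Asxl1-/- against WT (adjusted p = 0.494) and 1.95 ± 1.25 in Asxl1-/-Jak2V617F against WT (adjusted p = 0.316).

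Its near-identical neighbour Hspa1a, which encodes almost the same protein, followed it from library to library. Hspa1a had 36.7, 108 and 63.6 CPM in the Asxl1-/-Jak2V617F libraries, 1.82, 46.2 and 4.80 CPM in the Jak2V617F libraries, 29.9 and 48.6 CPM in Asxl1-/-, and 26.6, 0.62 and 13.7 CPM in WT. Hspa1b exceeded it 2.16- to 8.09-fold, with the highest ratio in WT 2, where Hspa1a had few reads (0.62 CPM). Reads that fit both copies may have been split or dropped, and how they were treated is not given in the sources used here. Summing both genes gave 1.51 in Asxl1-/-Jak2V617F against Jak2V617F (adjusted p = 0.373), also not a call. Hspa1a alone passed in that comparison when Jak2V617F 2 was left out (4.37, adjusted p = 0.0387) or a sex term added (4.39, adjusted p = 0.0385), against 1.98 otherwise (adjusted p = 0.263).

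The promoters of the pair are shown because the genes differed in counts while their upstream sequence hardly does. Since some reads fit both copies, the counts do not settle whether the levels differ. Capitals mark the same 2-unit match, 104 bases before the start in both.
Hspa1b, chr17:34959189-34959488, minus strand: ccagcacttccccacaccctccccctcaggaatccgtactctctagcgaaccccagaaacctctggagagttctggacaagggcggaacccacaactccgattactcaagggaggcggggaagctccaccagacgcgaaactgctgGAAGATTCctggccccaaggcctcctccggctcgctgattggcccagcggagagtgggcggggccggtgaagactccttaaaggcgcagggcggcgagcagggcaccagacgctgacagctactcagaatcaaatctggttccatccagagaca
Hspa1a, chr17:34972107-34972406, minus strand: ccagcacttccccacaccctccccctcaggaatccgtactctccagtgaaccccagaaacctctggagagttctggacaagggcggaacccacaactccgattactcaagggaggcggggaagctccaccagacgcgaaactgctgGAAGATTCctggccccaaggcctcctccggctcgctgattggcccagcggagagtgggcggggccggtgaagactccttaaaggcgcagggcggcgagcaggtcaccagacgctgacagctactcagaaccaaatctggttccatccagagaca
The windows are identical at 296 of 300 bases (98.67%). Counted from 1 at the 5′ end of the window, with the Hspa1b base first, the differences are T44C, C47T, G249T and T276C, none of them inside the match.

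**Figure D4:**
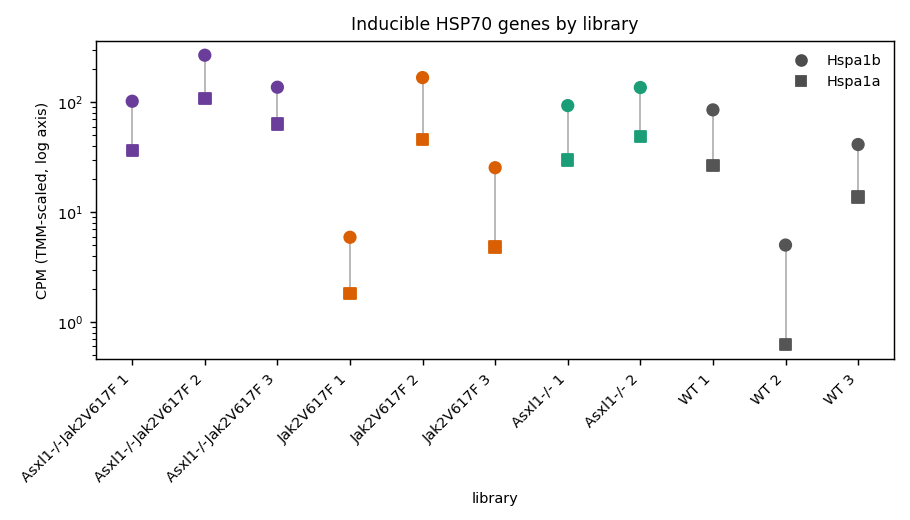
CPM (TMM-scaled, log axis) of Hspa1b (circles) and Hspa1a (squares) in each library, coloured by genotype and joined by a line within a library. Both genes are lowest in WT 2 and Jak2V617F 1 and highest in Asxl1-/-Jak2V617F 2.

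Within genotypes, some libraries were above or below the mean for all or nearly all members. Jak2V617F 2 was above its genotype mean for 10 of 10 genes and Jak2V617F 1 for 0 of 10, with median deviations of 0.36 and -0.41 on the log2 scale. Jak2V617F 3 was above it for 5 of 10 (0.04). In WT, library 3 was above the mean for 10 of 10 and library 2 for 0 of 10 (0.22 and -0.28), and library 1 was above it for 7 of 10. In Asxl1-/-Jak2V617F, library 3 was above it for 9 of 10 (0.11) and libraries 1 and 2 for 3 of 10 each, and in Asxl1-/- the counts were 8 and 2. Over all genes the median deviation lay between -0.01 and 0.01 in every library. Deviations within a genotype sum to 0, so these counts are not independent, and Jak2V617F 2 is also the Jak2V617F library with reads of Y-linked genes. The pooled SD within genotypes was 1.76 on the log2 scale for Hspa1b, larger than for all but 0.307% of genes. It was 0.13 for Hsp90ab1, and 74.3% of genes varied more. The median was 0.31 over the members and 0.23 over all genes.

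Likeness was measured as the Euclidean distance between log2 CPM profiles, each centred on its mean, over the same 11 libraries. For Hspa8 and Dnajb1 the nearest of all protein-coding genes was Dnaja1, at 0.51 and 0.50, and for Hsph1 it was Hsp90aa1, at 1.05. For the others a gene outside the members came first: Odc1 for Hsp90aa1 (0.47), Tars for Hsp90ab1 (0.20), Gfm1 for Hspd1 (0.39), Noa1 for Hspe1 (0.57), Chordc1 for Dnaja1 (0.34), Slc35d1 for Hspa4l (0.53) and Hspa1a for Hspa1b (1.52). The median distance to all 12945 genes compared was 1.65 to 6.11, depending on the member. These distances share libraries and depth and are a description. For Hsp90ab1, 1197 genes lay nearer than its nearest member, Hsp90aa1 (0.74), for Hspa4l 251 lay nearer than Hsp90aa1 (0.88), and for Hspa1b 112 lay nearer than Hspa8 (5.17). For the other 7 members the number was 0 to 8.

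The effect of Asxl1 loss on 5 of the chaperones differed between the Jak2V617F and the WT background, and 4 of these calls were lost with a sex term. This interaction, the log2 fold change of Asxl1-/-Jak2V617F against Jak2V617F minus that of Asxl1-/- against WT, was negative for all 10 members and passed for 5. The 5 were Hspe1 (-1.75 ± 0.23, adjusted p = 0.000285), Hspd1 (-1.14 ± 0.24, adjusted p = 0.00372), Hsp90aa1 (-0.95 ± 0.32, adjusted p = 0.0329), Hspa4l (-0.70 ± 0.23, adjusted p = 0.0301) and Hsp90ab1 (-0.68 ± 0.17, adjusted p = 0.00864). Over all genes 17.9% had a called negative interaction and 23.7% a called positive one, and the median was 0.10 against -0.81 over the members. In Hspe1, for example, the mean level was 244 CPM with Asxl1 lost and 420.3 CPM with Asxl1 intact on the Jak2V617F background, whereas it was 274 CPM with Asxl1 lost and 140.3 CPM with it intact on the WT background. The count was 9 without Jak2V617F 1, 3 without Asxl1-/-Jak2V617F 2, 3 without WT 2, 2 without Asxl1-/- 1, 3 with no filter on low counts and 1, Hspe1, with a sex term. That term also moved the median to -0.07 and turned the estimates of Hspa8, Dnaja1, Dnajb1 and Hspa1b positive (0.04, 0.56, 0.60 and 5.47, none of them a call), so 6 of the 10 were negative with it. The calls of Hspe1 and Hspd1 held without any single library, while Hsp90aa1 also missed the threshold without Asxl1-/-Jak2V617F 1, Jak2V617F 2, Jak2V617F 3 or WT 1 (adjusted p = 0.0561 to 0.0708).

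Among the factors that read heat shock elements, Hsf1 was highest in Jak2V617F, and its changes were smaller than those of the members that passed. It had 62.6, 63.6 and 61.8 CPM in the Asxl1-/-Jak2V617F libraries, 79.8, 79.3 and 86.8 CPM in the Jak2V617F libraries, 69.7 and 69.3 CPM in Asxl1-/-, and 63.5, 56.6 and 58.4 CPM in WT. Against Jak2V617F, Hsf1 fell by 0.39 ± 0.07 in Asxl1-/-Jak2V617F (adjusted p = 0.0013). It rose by 0.46 ± 0.07 in Jak2V617F against WT (adjusted p = 0.00028). In Asxl1-/- against WT it gave 0.22 ± 0.08 (adjusted p = 0.0711), which passed without WT 1 (0.30, adjusted p = 0.0247). Hsf2 was called in none of the comparisons. HSF1 acts mainly through its state as a protein, which a count of its mRNA does not show.

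Other chaperones were read from lists sorted by compartment and partner, of which 97 of 107 genes passed the filter on low counts. In Jak2V617F against WT 53 of the 97 rose and 19 fell, where 24.4% of all genes tested rose and 29.2% fell. In Asxl1-/-Jak2V617F against Jak2V617F 23 rose and 26 fell, where 24.5% of all genes rose and 19.8% fell. These shares of all genes are the background for the lists below too, and counts near them do not set a list apart. In Asxl1-/-Jak2V617F against Jak2V617F and in Jak2V617F against WT, the endoplasmic reticulum chaperones moved against the direction of the members that passed. Of 16 genes, 15 rose and none fell in Asxl1-/-Jak2V617F against Jak2V617F (median 1.09), and 12 fell and 1 rose in Jak2V617F against WT (median -0.52). Hspa5, the HSP70 of this compartment also called BiP, averaged 1356 ± 227 CPM over the Asxl1-/-Jak2V617F libraries and 536 ± 123 CPM over the Jak2V617F libraries (SD, n = 3 each), and rose by 1.34 ± 0.18 (adjusted p = 0.000154). The protein disulfide isomerases Pdia6 (1.502 ± 0.11) and P4hb (1.46 ± 0.12) and the calcium-binding lectin chaperone Calr (1.56 ± 0.16) rose too (adjusted p = 1.53e-06, 2.15e-06 and 1.44e-05). Hsp90b1, the HSP90 of this compartment, rose by 0.99 ± 0.15 in Asxl1-/-Jak2V617F against Jak2V617F and fell by 0.57 ± 0.15 in Jak2V617F against WT (adjusted p = 0.000222 and 0.00592). The same 15 genes rose in each of 19 alternatives. Against WT, 14 of the 16 rose in Asxl1-/-Jak2V617F, where the members that passed rose too. The 14 calls were 9 without Asxl1-/-Jak2V617F 1 and 5 without WT 2.

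**Figure D5:**
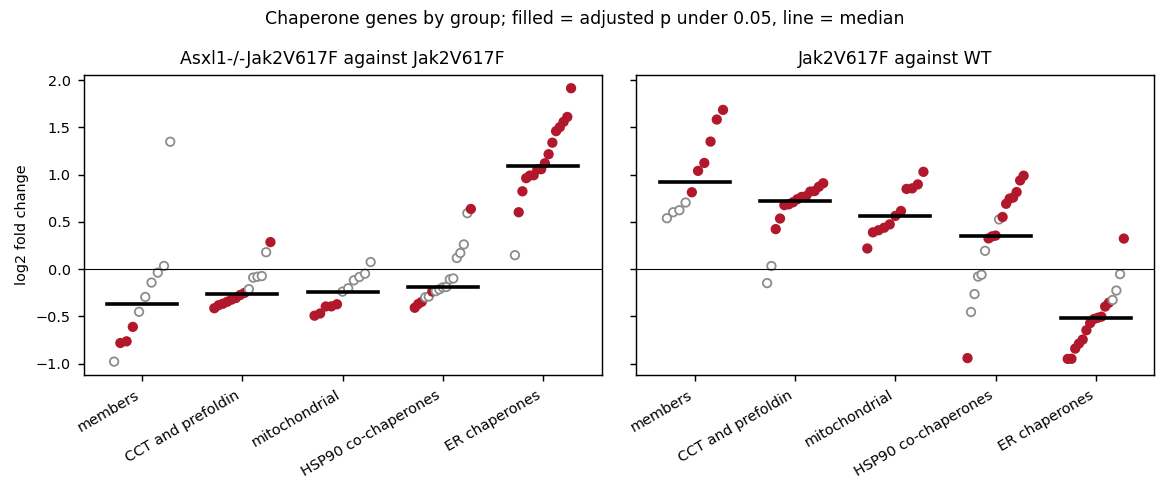
Log2 fold changes of the 10 members and of 4 lists of other chaperone genes in Asxl1-/-Jak2V617F against Jak2V617F (left) and Jak2V617F against WT (right). Filled points passed an adjusted p of 0.05 and lines are medians, which for the endoplasmic reticulum (ER) list are 1.09 and -0.52 and for the members -0.37 and 0.93.

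The cytosolic chaperonin and its feeder prefoldin moved in the direction of the members that passed. Of 14 genes, 8 fell and 1 rose in Asxl1-/-Jak2V617F against Jak2V617F (median -0.26), and 12 rose in Jak2V617F against WT (median 0.72), where Cct8 rose by 0.77 ± 0.09 and Cct7 by 0.82 ± 0.10 (adjusted p = 3.81e-05 and 4.16e-05). Cct4 fell by 0.41 ± 0.10 in Asxl1-/-Jak2V617F against Jak2V617F (adjusted p = 0.00607), while Pfdn5 was the gene that rose there (0.29 ± 0.07, adjusted p = 0.00702). The 9 calls were 3 without Asxl1-/-Jak2V617F 1, 5 without Asxl1-/-Jak2V617F 2 and 4 without Jak2V617F 3.

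Of 11 other mitochondrial chaperones and proteases, 5 fell in Asxl1-/-Jak2V617F against Jak2V617F (median -0.24) and 11 rose in Jak2V617F against WT (median 0.56). Hspa9, the mitochondrial HSP70, rose by 1.03 ± 0.13 in Jak2V617F against WT, and Clpp, a matrix protease subunit, rose by 0.90 ± 0.11 (adjusted p = 4.56e-05 and 3.08e-05). Trap1, the mitochondrial HSP90, rose by 0.47 ± 0.09 (adjusted p = 0.000951), and Dnaja3, a mitochondrial J-domain protein, by 0.85 ± 0.12 (adjusted p = 8.75e-05). The 5 calls were 3 without Asxl1-/-Jak2V617F 1, without Asxl1-/-Jak2V617F 2 or without Jak2V617F 3.

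Of 17 HSP90 co-chaperones 10 rose and 1 fell in Jak2V617F against WT. In Asxl1-/-Jak2V617F against Jak2V617F 1 rose and 4 fell, and the part that fell was near the share of all genes. Cacybp, the calcyclin-binding protein, rose by 0.99 ± 0.11 and Ptges3, which encodes p23, by 0.76 ± 0.09 in Jak2V617F against WT (adjusted p = 2.27e-05 and 3.28e-05). The 5 calls in Asxl1-/-Jak2V617F against Jak2V617F were 8 without Jak2V617F 1 and 3 without Asxl1-/-Jak2V617F 2 or without Jak2V617F 2.

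Of 12 HSP70 cofactors 9 rose and none fell in Jak2V617F against WT, and 1 rose and 2 fell in Asxl1-/-Jak2V617F against Jak2V617F. Bag2, an HSP70 nucleotide exchange factor, had 43.6 ± 8.26 CPM in Asxl1-/-Jak2V617F, 86.0 ± 2.41 CPM in Jak2V617F and 31.0 ± 6.27 CPM in WT (SD, n = 3 each). It fell by 0.98 ± 0.16 in Asxl1-/-Jak2V617F against Jak2V617F and rose by 1.47 ± 0.16 in Jak2V617F against WT (adjusted p = 0.000352 and 1.57e-05). Hspbp1, another exchange factor, fell by 0.61 ± 0.13 and rose by 0.90 ± 0.13 in the same comparisons (adjusted p = 0.0022 and 0.000117). Of 8 small heat shock protein genes, Hspb6 was the 1 that passed the filter, and it fell by 0.58 ± 0.17 and rose by 0.48 ± 0.17 (adjusted p = 0.0154 and 0.0295). The 3 cofactor calls in Asxl1-/-Jak2V617F against Jak2V617F were 5 without Asxl1-/-Jak2V617F 3, Jak2V617F 3 or WT 1.

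The other HSP70 genes did not move together. Of 11, which include Hspa5 and Hspa9, 4 rose and 2 fell in Asxl1-/-Jak2V617F against Jak2V617F (median 1.06), and 3 rose and 4 fell in Jak2V617F against WT (median -0.33). Hspa2, an HSP70 known for its role in the testis, rose by 1.63 ± 0.19 in Asxl1-/-Jak2V617F against Jak2V617F and fell by 0.97 ± 0.19 in Jak2V617F against WT (adjusted p = 4.27e-05 and 0.0012). Hyou1, an exchange factor of the endoplasmic reticulum, rose by 1.06 ± 0.14 in Asxl1-/-Jak2V617F against Jak2V617F (adjusted p = 0.00011). Hspa4, a relative of Hspa4l, rose by 0.67 ± 0.10 in Jak2V617F against WT (adjusted p = 0.000132).

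Of 22 other J-domain genes, 5 rose and 5 fell in Asxl1-/-Jak2V617F against Jak2V617F (median -0.08), near the shares of all genes. In Jak2V617F against WT 10 rose and 5 fell (median 0.24). Dnajb9 and Dnajc3, which act in the endoplasmic reticulum, rose in the first of these comparisons, by 1.61 ± 0.18 (adjusted p = 2.85e-05) and 1.06 ± 0.13 (adjusted p = 4.85e-05). Dnaja2, a cytosolic relative of Dnaja1, rose by 0.42 ± 0.07 in Jak2V617F against WT (adjusted p = 0.000467). Some genes stand in more than 1 list.

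With Asxl1 lost and Jak2 intact, chaperone genes of several compartments rose, but most of these calls were lost with a sex term. Both Asxl1-/- libraries and no WT library held reads of Y-linked genes. In Asxl1-/- against WT 12 of 14 chaperonin and prefoldin genes, 9 of 16 endoplasmic reticulum genes and 3 of 11 mitochondrial genes rose, with medians of 0.46, 0.48 and 0.30. Over the 97 other chaperones 46 rose and 2 fell, where 11.3% of all genes tested rose and 11.2% fell. These 48 calls were 3 without Asxl1-/- 1, 25 without Asxl1-/- 2, 25 without WT 2 and 3 with a sex term, and over all genes tested 3664 calls became 288 without Asxl1-/- 1. The 3 lists each had 0 calls without Asxl1-/- 1. The 12 chaperonin and prefoldin calls were 7 without Asxl1-/- 2, the 9 endoplasmic reticulum calls 4 without Asxl1-/- 2 or WT 3 and 3 without WT 2, and the 3 mitochondrial calls 5 without Jak2V617F 2 and 6 without WT 1.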

How the data were processed

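The deposited table holds unnormalized read counts, with an Ensembl gene in each row and a library in each column. Among the tools in the submitters' processing notes are featureCounts 1.5.0-p3 and HISAT2 2.0.5, beside the mm10 genome. Strandedness, handling of reads that fit several places, and annotation version were not given in the sources used here. Chromatin samples were not analysed here.

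After filterByExpr and TMM scaling, the robust quasi-likelihood test of edgeR 4.0.16 was run under R 4.3.3 in 1 fit of all 11 libraries with genotype as the factor. The common biological coefficient of variation was 19.7%. P-values were adjusted by Benjamini-Hochberg over 16262 genes, and the standard error is the log2 fold change over the square root of F. Log2 CPM used a prior count of 2. The test was checked on simulated counts. Between replicates, chi-square per degree of freedom was 7.75 to 33.1, so none was a repeat of another. Counting error is small at these depths for the members other than Hspa1b, which had 89 counts in WT 2 and 110 in Jak2V617F 1. The alternatives tried were median-of-ratios scaling, DESeq2 1.42.0, a filter at a CPM of 1 in 3 libraries or none, the compared groups alone, a replicate block, a sex term, pseudogene reads added, Hspa1a and Hspa1b summed, and each library left out.

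The members, the lists and the rule for named genes (the members, Hsf1, Hsf2, and per list and comparison up to 3 genes of smallest adjusted p) were chosen with earlier results of these data known. A gene that this rule names is not reported here. Promoter windows come from RefSeq.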

Additional observations from a re-analysis of the deposited data

Results flagged for a closer look

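The effect of Asxl1 loss differed between the Jak2V617F and the WT background in edgeR's quasi-likelihood interaction term (log2), a test of the difference itself. A negative value means that the log2 fold change with Asxl1 loss was lower on the Jak2V617F background than on the WT background. This term compares changes, not levels. Among the members it was -1.75 for Hspe1, -1.14 for Hspd1, -0.95 for Hsp90aa1, -0.70 for Hspa4l and -0.68 for Hsp90ab1. It was -0.61 for Hsf1. It was -0.94 for Cct4, -0.89 for Cct7 and -0.65 for Cct8 of the cytosolic chaperonin, -1.57 for Bag2 and -1.10 for Hspbp1 of the HSP70 cofactors, -0.60 for the HSP70 relative Hspa4, 0.92 for Hspa2, -0.48 for the J-domain gene Dnaja2, and -1.14 for Cacybp and -0.95 for Ptges3 of the HSP90 co-chaperones. Of the mitochondrial genes it was -1.04 for Clpp, -0.91 for Dnaja3, -0.77 for Hspa9 and -0.42 for Trap1. It was positive for endoplasmic reticulum chaperones, at 1.01 for P4hb, 0.96 for Pdia6, 0.93 for Calr, 0.87 for Hsp90b1, 0.85 for Hspa5, 1.03 for Dnajb9, 0.87 for Dnajc3 and 0.70 for Hyou1. For Jak2 it was -0.85. Both Asxl1-/- libraries and 1 of the 3 Jak2V617F libraries held reads of Y-linked genes, and with a sex term in the fit 1 of the 5 member calls remained, Hspe1. The calls among the 97 other chaperone genes were then 25, against 54 without it. They were 7 against 11 in the endoplasmic reticulum list, 5 against 11 in the chaperonin list, 4 against 7 in the mitochondrial list and 5 against 11 in the HSP90 co-chaperone list.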

How the results depend on the processing

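No member reversed its direction after passing the test in any of the 20 alternatives. Over the members and comparisons, 1064 single-gene results kept their side of the threshold, 50 passed that had not, and 22 were lost. Of the counts of members called, DESeq2 gave 4 in Asxl1-/- against WT and 5 in Asxl1-/-Jak2V617F against WT, against 2 and 3, 9 in Jak2V617F against WT, against 6, and 7 for the interaction, against 5. In Jak2V617F against WT, median-of-ratios scaling and the filter at a CPM of 1 each gave 8. The fit of the compared groups alone gave 6 in Asxl1-/- against WT, and no filter on low counts gave 3 for the interaction, against 5. The sex term gave 0, 5 and 1 in Asxl1-/- against WT, Asxl1-/-Jak2V617F against WT and the interaction, and moved the median log2 over the members in Asxl1-/-Jak2V617F against Asxl1-/- to 0.65, against 0.08. Leaving out each library in turn gave 3 to 5 in Asxl1-/-Jak2V617F against Jak2V617F, 6 to 9 in Jak2V617F against WT, 0 to 5 in Asxl1-/- against WT, 2 to 6 in Asxl1-/-Jak2V617F against WT, 0 in Asxl1-/-Jak2V617F against Asxl1-/- and 2 to 9 for the interaction. Over all genes, deviations of same-numbered libraries correlated at -0.199 to 0.174. Low values over all genes cannot exclude a pairing by number that affects few genes. Over the 10 members alone these correlations were 0.493 to 0.957 between genotypes with a mutant allele and -0.937 to -0.0298 between those and WT, and Hspa1b varies far more than the other members. With the replicate block the 6 counts were 3, 6, 3, 4, 0 and 5. Over all genes, calls in Asxl1-/- against WT went down to 288 without Asxl1-/- 1 and 502 with a sex term, against 3664. Calls in Asxl1-/-Jak2V617F against WT were 531 without WT 2, against 2449, and in Asxl1-/-Jak2V617F against Asxl1-/- 86 without Asxl1-/- 2, 52 with a sex term and 1466 with DESeq2, against 899. Interaction calls were 3079 with a sex term and 4483 without Asxl1-/- 1, against 6764. The cause of these moves was not tested. With 2 Asxl1-/- libraries, leaving 1 out assumes that the other varies like the remaining genotypes.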
